A study of Rattus norvegicus with 17 samples.

Results

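A set of 10 secreted defence and protease inhibitor genes of the rat was named by symbol and followed in the meibomian gland (MG): *Defb1*, *Defb4*, *Lcn2*, *Slpi*, *Slpil3*, *Camp*, *Ltf*, *Pglyrp1*, *Pi3* and *Wfdc2*. Of these 10 genes, 9 were listed among the 17251 genes of the deposited table, and *Pi3* was not analysed here. Of the 9, 7 reached at least 1 TPM in at least 3 rats and entered the test with 13105 genes in all, while *Camp* and *Ltf* did not. TPM is the share of a sample's transcripts that a gene takes after correction for its length, so levels of different genes can be set side by side.

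The MG is the sebaceous gland of the eyelid that makes the lipid layer of the tear film. Epithelia that face the outside secrete small cationic peptides and proteins that kill or starve microbes, among them the beta-defensins, the cathelicidin encoded by *Camp*, the iron-withholding proteins lipocalin 2 and lactoferrin (*Lcn2*, *Ltf*), and *Pglyrp1*, which binds bacterial peptidoglycan. Proteins with WAP domains, such as the antileukoproteinase *Slpi*, block serine proteases of neutrophils and of the epidermis and can be antimicrobial themselves. Many of these genes are known to be induced in epithelia by interleukins and by NF-kappaB and C/EBP factors. The products of some of them, *Camp*, *Ltf* and *Pglyrp1* among others, are also stored in neutrophil granules.

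The 17 rats were female Sprague-Dawley rats, 10 to 12 weeks old, in 4 groups: Control WT (n = 4), Control P1.hMR (n = 5), UVB WT (n = 3) and UVB P1.hMR (n = 5). P1.hMR rats carry the human *NR3C2* gene for the mineralocorticoid receptor (MR) under its own P1 promoter, so the receptor is not restricted to the gland and is made wherever that promoter is active. In both UVB groups the eyelids were irradiated on 5 days before the glands were dissected, and both control groups had no irradiation. The study asked how MR overexpression changes the gland and its response to UVB. The study's methods count more eyes than samples in the UVB groups, so a sample may hold both eyes of a rat.

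The human transgene was listed at 0 in every WT rat and reached 5.31 to 9.31 TPM in each P1.hMR rat. The 9 listed meibocyte markers, led by *Scd* and *Awat2*, summed to between 38240 and 52910 TPM. Of these, *Awat2*, a wax synthase of meibocytes, was called lower after UVB in both genotypes (log2 fold changes -0.65 and -0.52) and the elongase *Elovl3* higher (0.55 and 0.77), and the part of these cells in the UVB changes of the 7 genes was not tested. Skeletal muscle markers, of 6 genes with 5 listed, summed to between 1416 and 3203 TPM. Depth is unknown from TPM. A difference in this bulk tissue can come from more or fewer cells of a type or from more or less RNA in each cell, and these cannot be told apart.

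Promoter sequences show the DNA next to the start of these genes, where the inducing factors are known to act. RefSeq promoter sequences (build GRCr8) were available for 5 of the 10 genes. The 250 bases before the start of transcription are shown for the 3 of them that were tested. Capitals mark matches, on either strand, to GGGANNNNCC, an NF-kappaB-like motif, or to TTNCNNAA, a C/EBP-like motif. In order, the windows are chr3:36081781-36082030 on the minus strand, chr1:87659613-87659862 on the plus strand and chr3:173706225-173706474 on the plus strand.
Lcn2: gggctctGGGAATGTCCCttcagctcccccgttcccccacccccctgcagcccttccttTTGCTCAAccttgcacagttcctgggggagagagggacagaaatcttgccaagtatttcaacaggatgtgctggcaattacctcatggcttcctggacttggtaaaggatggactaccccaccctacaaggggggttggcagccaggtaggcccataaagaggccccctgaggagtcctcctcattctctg
Pglyrp1: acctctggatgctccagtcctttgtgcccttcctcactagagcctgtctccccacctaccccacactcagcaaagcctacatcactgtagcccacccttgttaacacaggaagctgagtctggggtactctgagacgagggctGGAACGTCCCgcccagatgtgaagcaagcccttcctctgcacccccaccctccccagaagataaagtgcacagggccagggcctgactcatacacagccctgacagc
Wfdc2: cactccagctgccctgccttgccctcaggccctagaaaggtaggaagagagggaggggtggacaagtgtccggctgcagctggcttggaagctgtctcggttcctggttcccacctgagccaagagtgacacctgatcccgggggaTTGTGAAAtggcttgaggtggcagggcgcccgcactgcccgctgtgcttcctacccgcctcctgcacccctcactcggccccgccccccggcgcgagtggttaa

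The *Lcn2* window held an NF-kappaB-like match, GGGAATGTCC, whose first base lay 243 bases before the start, with a match on the other strand that began 1 base further on. It also held the C/EBP-like match TTGCTCAA at 191 bases before the start. The *Pglyrp1* window held an NF-kappaB-like match at 107 bases before the start and no C/EBP-like match, and the *Wfdc2* window held only a C/EBP-like match, at 104 bases. The windows of *Camp* and *Ltf*, which are not shown, held no match to either motif. Among the 33469 RefSeq promoter windows of this length, 16.4% held the NF-kappaB-like motif and 37.2% the C/EBP-like motif, so either match is common and is not by itself a binding site.

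Without UVB, *Defb1* was the most abundant of the genes and *Defb4* the next, and their rats did not overlap. In Control WT rats, *Defb1* averaged 134.4 ± 7.32 TPM (SD, n = 4) and *Defb4* 70.9 ± 9.94 TPM (SD, n = 4). *Slpi* followed at 27.4 ± 9.95 TPM, *Wfdc2* at 18.2 ± 3.38 TPM and *Slpil3* at 9.89 ± 4.95 TPM, with rats that overlapped between *Slpi* and *Wfdc2* and between *Wfdc2* and *Slpil3*. *Pglyrp1* lay between 0.95 and 1.61 TPM, and *Camp*, *Lcn2* and *Ltf* averaged 0.270, 0.113 and 0.0150 TPM. After UVB the order differed: in UVB WT rats *Defb4* led without overlap at 280.4 ± 58.2 TPM (SD, n = 3), followed by *Defb1* and *Slpi*, which overlapped.

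**Figure D1:**
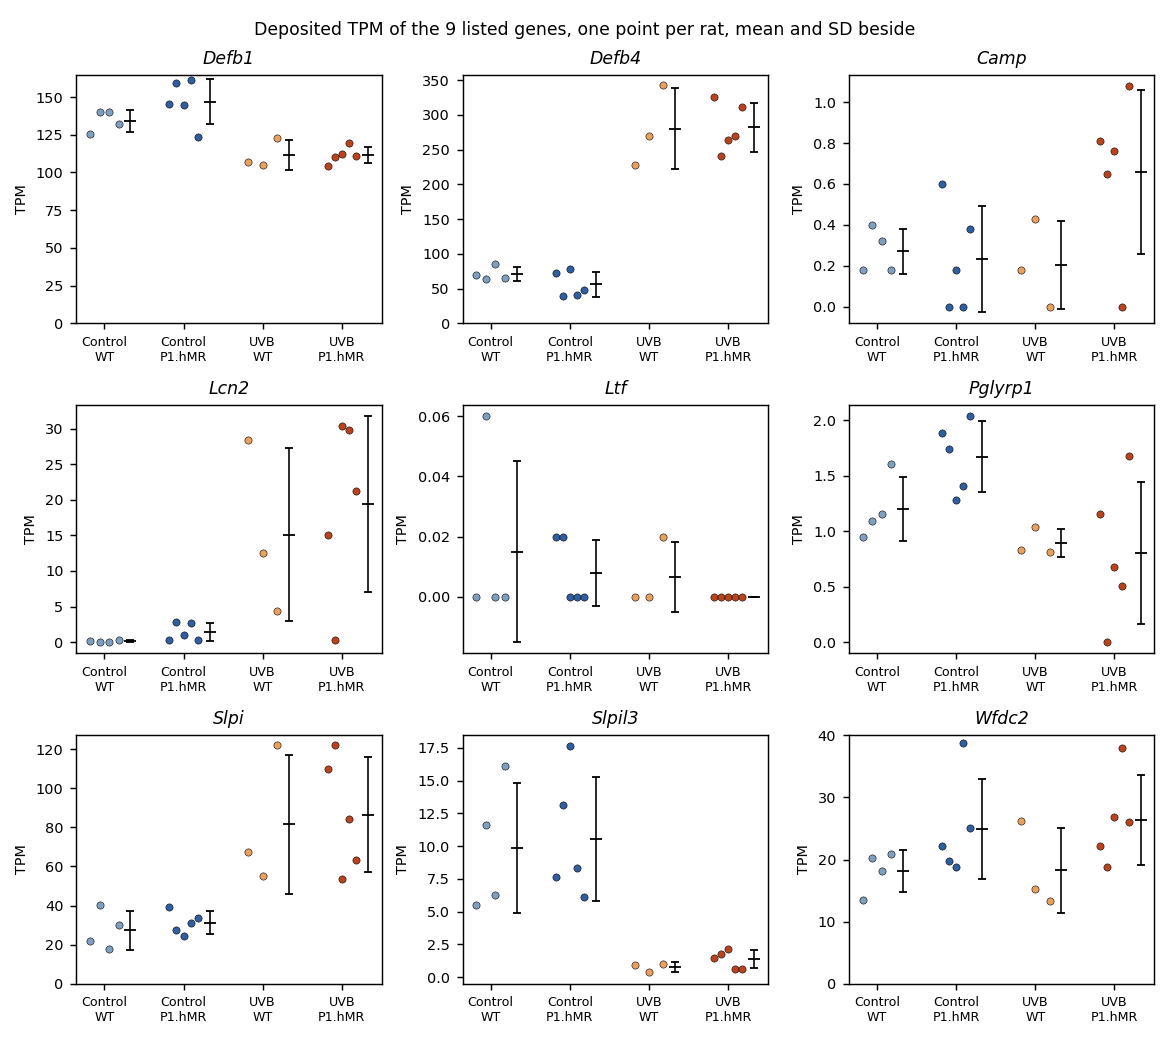
Each panel plots the deposited TPM of 1 of the 9 listed genes on a linear axis of its own, with 1 point per rat in each of the 4 groups and the mean and SD beside the points. *Defb4* and *Slpi* lie higher and *Slpil3* lies lower in all UVB rats than in all control rats, *Lcn2* is at 0.35 TPM in 1 UVB P1.hMR rat, and *Ltf* stays at or under 0.06 TPM.

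A gene was called changed if limma gave it a Benjamini-Hochberg adjusted p under 0.05, adjusted over all 13105 genes, where its log2 fold change on the log2(TPM + 1) scale was also 0.5 or more in size. On that scale the change of a gene near 1 TPM is understated. In WT rats, 4 of the 7 tested genes were called after UVB, 3 higher (*Defb4*, *Lcn2*, *Slpi*) and 1 lower (*Slpil3*), where 7.91% of all genes were called, 3.92% higher and 3.98% lower. In P1.hMR rats, 5 of the 7 were called, the same 3 higher and *Slpil3* and *Pglyrp1* lower, where 10.8% of all genes were called, 5.05% higher and 5.71% lower. The 7 genes had median log2 fold changes of -0.03 (WT) and 0.09 (P1.hMR), beside 0.01 and -0.02 over all genes, since the genes moved in opposite directions.

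The rats of the UVB and control groups did not overlap for 5 of the 7 genes in WT and for 4 of the 7 in P1.hMR rats, where 26.6% and 27.2% of all genes did not overlap. The summed level of the 9 genes lay between 236.82 and 289.61 TPM in the control rats of both genotypes, between 458.83 and 607.33 TPM in UVB WT rats and between 490.12 and 580.55 TPM in UVB P1.hMR rats. *Defb1* and *Defb4* together made up between 71.0% and 83.9% of that sum in every rat.

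**Figure D2:**
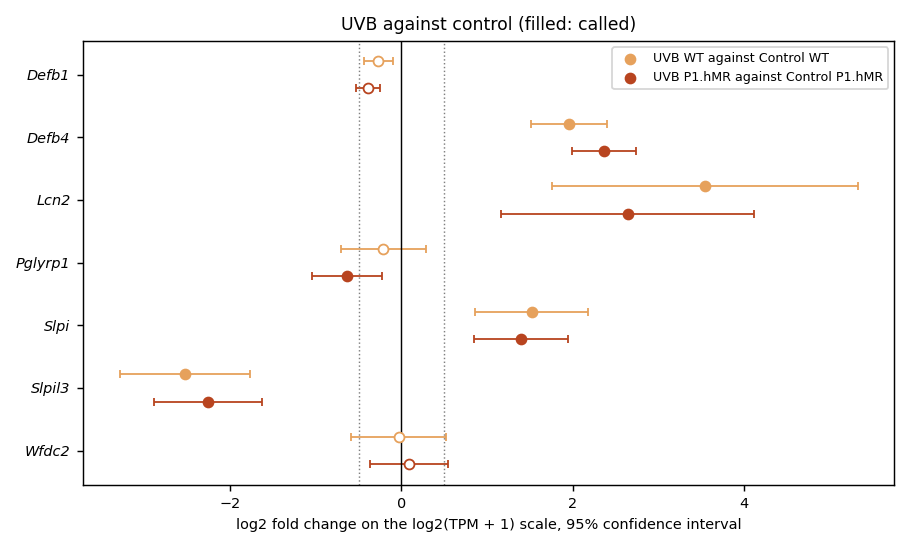
The horizontal axis is the log2 fold change of UVB against control on the log2(TPM + 1) scale, with the 95% confidence interval of limma, for the 7 tested genes in WT (light) and P1.hMR (dark) rats. Filled points were called, dotted lines mark log2 fold changes of 0.5 in either direction, and the *Wfdc2* intervals include 0 in both genotypes.

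Of the 2 beta-defensins, *Defb4* rose after UVB in both genotypes and *Defb1* was lower in every UVB rat without being called. *Defb4*, an inducible defensin of stimulated epithelia, was at 69.59, 63.59, 85.35 and 65.2 TPM in Control WT rats and at 228.02, 270.19 and 342.99 TPM in UVB WT rats. All UVB WT rats were above all Control WT rats, and the group means differed 3.95-fold. In limma this was a log2 fold change of 1.96 (SE 0.21, 95% interval 1.51 to 2.40, Benjamini-Hochberg adjusted p = 3.42e-05).

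In P1.hMR rats, *Defb4* was at 71.82, 39.84, 78.66, 40.33 and 48.65 TPM without UVB and at 325.64, 241.36, 263.32, 269.99 and 311.01 TPM with UVB. These groups did not overlap either, and their means differed 5.05-fold. In limma their log2 fold change was 2.37 (SE 0.17, 95% interval 2.00 to 2.74, limma adjusted p = 2.35e-07).

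*Defb1*, the constitutively expressed epithelial defensin, was at 125.16, 140.23, 140.29 and 131.84 TPM in Control WT rats and at 106.75, 104.64 and 122.66 TPM in UVB WT rats. It was at 145.69, 159.14, 144.7, 161.25 and 123.73 TPM in Control P1.hMR rats and at 104.49, 110.1, 112.42, 119.26 and 110.94 TPM in UVB P1.hMR rats. In both genotypes every UVB rat was below every control rat, although the lowest control rat came within 5 TPM of the highest UVB rat. These 2 rats were at 125.16 and 122.66 TPM in WT and at 123.73 and 119.26 TPM in P1.hMR rats. The log2 fold changes of -0.27 (SE 0.08, limma adjusted p = 0.0245) in WT rats and -0.39 (SE 0.07, limma adjusted p = 0.000274) in P1.hMR rats passed the p threshold and were smaller than the fold change threshold, so *Defb1* was not called.

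The ratio of *Defb4* to *Defb1* in TPM, both per length, ran from 0.453 to 0.608 in Control WT and from 0.25 to 0.544 in Control P1.hMR rats. It ran from 2.14 to 2.80 in UVB WT and from 2.19 to 3.12 in UVB P1.hMR rats. *Defb1* was thus the more abundant of the pair in every control rat and *Defb4* in every UVB rat. In the RefSeq annotation of GRCr8 the genes lie on the same chromosome with 13 protein-coding genes between them, most of them other defensins.

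*Lcn2*, whose product binds the siderophores with which bacteria take up iron, was close to 0 in WT rats without UVB. It was at 0.09, 0.07, 0 and 0.29 TPM in Control WT rats and at 28.44, 12.54 and 4.4 TPM in UVB WT rats. The groups did not overlap, and the UVB WT rats themselves spread widely. The log2 fold change was 3.54 (SE 0.84, 95% interval 1.76 to 5.33, limma adjusted p = 0.00779), and 5.96 with a pseudocount of 0.1 in place of 1.

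In Control P1.hMR rats *Lcn2* was at 0.32, 2.8, 1.05, 2.7 and 0.28 TPM, and in UVB P1.hMR rats at 15.05, 0.35, 30.39, 29.89 and 21.25 TPM. UVB P1.hMR rat 2 lay within the control range, and the other 4 lay above every control rat. The log2 fold change was 2.65 (SE 0.70, 95% interval 1.17 to 4.12, limma adjusted p = 0.00691), and 3.48 without that rat.

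*Ltf*, the other iron-withholding gene, was listed at 0 in 13 of the 17 rats and reached at most 0.06 TPM, in a Control WT rat. It was listed at 0 in all 5 UVB P1.hMR rats. After UVB the 2 iron-withholding genes stood far apart in level, except in UVB P1.hMR rat 2, where *Lcn2* was at 0.35 TPM. *Camp*, the cathelicidin precursor, lay between 0 and 0.6 TPM in control rats, between 0 and 0.43 TPM in UVB WT rats and between 0 and 1.08 TPM in UVB P1.hMR rats. Neither gene reached the level needed for the test.

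Among the WAP-domain genes, *Slpi* rose and *Slpil3* fell. *Slpi*, the secretory leukocyte protease inhibitor, was at 21.88, 40.17, 17.56 and 30.02 TPM in Control WT rats and at 67.53, 55.05 and 122.09 TPM in UVB WT rats. All UVB rats were above all control rats, a 2.98-fold difference of the means. In limma *Slpi* gave a log2 fold change of 1.52 (SE 0.31, 95% interval 0.86 to 2.18, limma adjusted p = 0.00316).

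In P1.hMR rats *Slpi* was at 39.42, 27.7, 24.37, 30.91 and 33.59 TPM without UVB and at 109.68, 122.09, 53.55, 84.37 and 63.19 TPM with UVB. These groups did not overlap, and the means differed 2.78-fold. The log2 fold change was 1.39 (SE 0.26, 95% interval 0.85 to 1.94, limma adjusted p = 0.000550). UVB P1.hMR rat 2, with the lowest *Lcn2* of the UVB rats, had the highest *Slpi* of its group.

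*Slpil3*, a rodent relative of *Slpi*, was at 5.52, 11.61, 6.31 and 16.11 TPM in Control WT rats and at 0.94, 0.37 and 1.01 TPM in UVB WT rats. Every UVB WT rat was below every control rat, and the mean without UVB was 12.8 times that with UVB. In limma *Slpil3* gave a log2 fold change of -2.53 (SE 0.36, 95% interval -3.29 to -1.77, limma adjusted p = 0.000277).

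In P1.hMR rats *Slpil3* was at 7.62, 13.12, 17.63, 8.37 and 6.09 TPM without UVB and at 1.5, 1.8, 2.19, 0.64 and 0.66 TPM with UVB. The groups again did not overlap, and the mean without UVB was 7.78 times that with UVB. The log2 fold change was -2.26 (SE 0.30, 95% interval -2.88 to -1.63, limma adjusted p = 3.12e-05). The ratio of *Slpi* to *Slpil3* in TPM ran from 1.38 to 5.52 in the control rats of both genotypes and from 24.4 to 148.8 in the UVB rats of both.

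*Slpil2*, a further relative of *Slpi* that was not among the 10 genes and was looked at after its values were seen, fell as well. It lay between 2.53 and 6.08 TPM in the control rats of both genotypes and between 0.14 and 0.99 TPM in the UVB rats. Its log2 fold changes were -1.72 in WT rats (limma adjusted p = 0.000563) and -1.67 in P1.hMR rats (limma adjusted p = 3.67e-05). *Slpil2* reached 1 TPM only in control rats and so entered the test through them. The quantification could have split reads between such closely related genes, so the values of *Slpi*, *Slpil2* and *Slpil3* are uncertain to that extent.

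**Figure D3:**
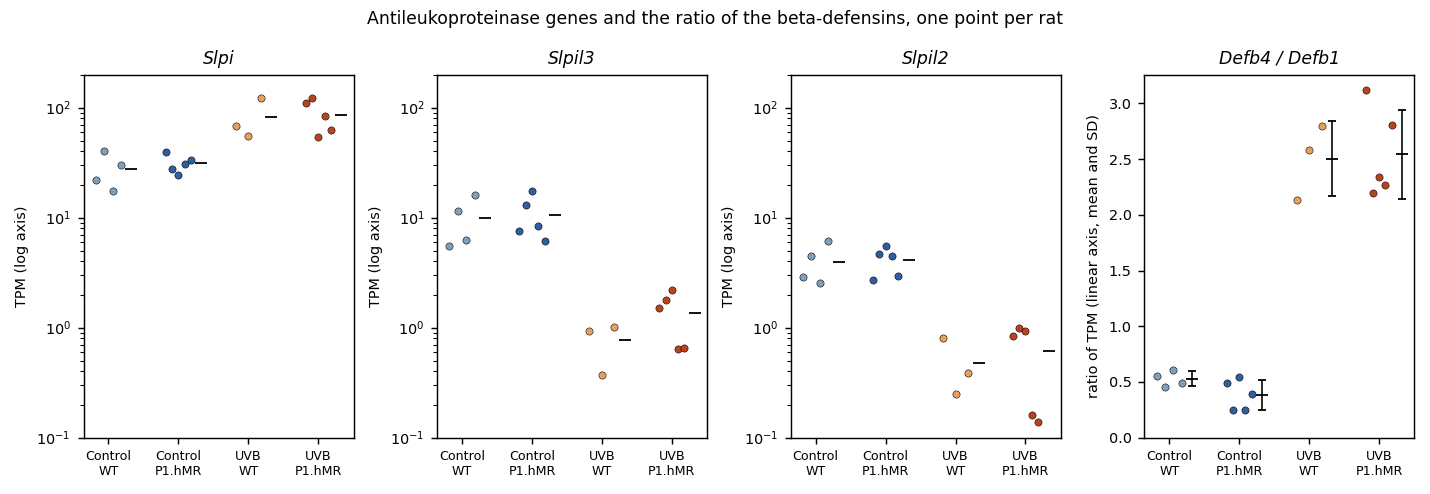
The first 3 panels plot TPM per rat on a shared log axis for *Slpi*, *Slpil3* and *Slpil2*, with the group mean as a dash, and the last panel plots the *Defb4* to *Defb1* ratio per rat on a linear axis with mean and SD. *Slpi* is higher and *Slpil3* and *Slpil2* are lower in all UVB than in all control rats, and the defensin ratio is above 2 in every UVB rat and below 0.7 in every control rat.

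*Wfdc2*, a WAP-domain protein of glandular and airway epithelia, was at 13.45, 20.22, 18.08 and 20.97 TPM in Control WT rats and at 26.14, 15.27 and 13.35 TPM in UVB WT rats. It was at 22.23, 19.73, 18.83, 38.71 and 25.13 TPM in Control P1.hMR rats and at 22.22, 18.75, 26.81, 38.03 and 26.01 TPM in UVB P1.hMR rats. UVB and control rats overlapped in both genotypes. The log2 fold changes were -0.03 (95% interval -0.58 to 0.52) in WT rats and 0.09 (95% interval -0.37 to 0.55) in P1.hMR rats, which leave changes of up to about these bounds undetected. *Slpi* and *Wfdc2* lie on the same chromosome with 7 protein-coding genes between them in the RefSeq annotation of GRCr8.

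*Pglyrp1* was low throughout, at 0.95, 1.09, 1.16 and 1.61 TPM in Control WT, and at 0.83, 1.04 and 0.81 TPM in UVB WT rats. It was at 1.89, 1.74, 1.28, 1.41 and 2.04 TPM in Control P1.hMR, and at 1.16, 0, 0.68, 0.51 and 1.68 TPM in UVB P1.hMR rats. Groups overlapped in both genotypes, and the rat listed at 0 was again UVB P1.hMR rat 2. *Pglyrp1* was called lower after UVB in P1.hMR rats (log2 fold change -0.63, SE 0.19, limma adjusted p = 0.0165), a call that was lost without that rat (-0.44), and was not called in WT rats (-0.21, 95% interval -0.71 to 0.29).

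No tested gene of the 7 was called between genotypes. With UVB, 0 of the 7 were called between P1.hMR and WT rats by limma, where 0.0229% of all genes were called, and 0 of the 7 had an unadjusted p under 0.05, as had 1348 of all genes. Without UVB, 0 of the 7 were called, where 0.00763% of all genes were called, and 0 of the 7 against 528 of all genes had an unadjusted p under 0.05. The interaction, the difference between the UVB responses of the genotypes, was called by limma for 0 of the 7 and for 0% of all genes, with an unadjusted p under 0.05 for 0 of the 7 and for 907 of all genes.

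**Figure D4:**
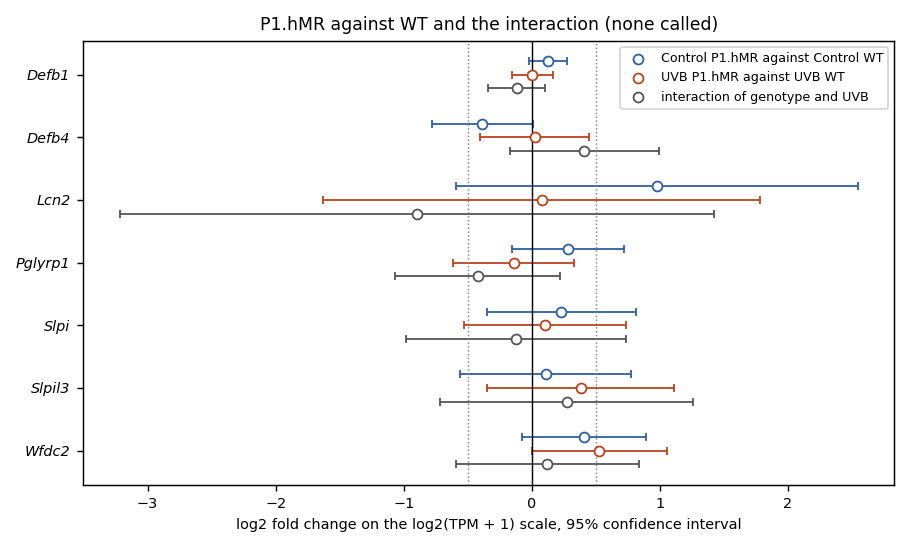
The horizontal axis is the log2 difference of P1.hMR against WT rats without UVB (blue) and with UVB (red), and the interaction (grey), on the log2(TPM + 1) scale with 95% confidence intervals of limma, for the 7 tested genes. All points are open because none was called, all intervals include 0, and those of *Lcn2* are the widest.

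The intervals show what differences between genotypes remained possible. With UVB, the log2 difference of P1.hMR against WT rats was 0.02 for *Defb4* (95% interval -0.41 to 0.45), 0.10 for *Slpi* (-0.53 to 0.73) and 0.38 for *Slpil3* (-0.35 to 1.11). For *Lcn2* it was 0.08, with an interval of -1.63 to 1.78 that leaves large differences in either direction undetected. *Wfdc2* was at 0.53 with UVB (95% interval -0.001 to 1.05, limma adjusted p = 0.487) and 0.41 without (-0.08 to 0.89, limma adjusted p = 0.998), with overlapping rats in both.

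Without UVB, *Lcn2* was above the highest Control WT rat in 4 of the 5 Control P1.hMR rats. The two-sided exact permutation test of this difference gave p = 0.0317 where the smallest p it allows is 0.0159, while limma gave a log2 difference of 0.97 (95% interval -0.59 to 2.54, adjusted p = 0.998). This was 1 of 28 such exact tests of the 7 genes over the 4 comparisons, of which 7 had an unadjusted p under 0.05. The exact tests of UVB WT against Control WT could not fall under 0.05, as their smallest p is 0.0571. This *Lcn2* test was the only one between genotypes under 0.05, and the others were of UVB P1.hMR against Control P1.hMR. In that UVB comparison, 6244 of all 13105 genes had an unadjusted limma p under 0.05. The exact test was not run over all genes, so its count has no share to stand beside. *Defb4* was 0.39 lower on the log2 scale in Control P1.hMR than in Control WT rats, with overlapping rats (log2 difference -0.39, 95% interval -0.78 to 0.01, limma adjusted p = 0.998), and its interaction was 0.41 (-0.17 to 0.99, limma adjusted p = 0.805).

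Over the 17 rats, the deviations of each gene from its group means were set beside those of 13098 other tested genes, as a description. The genes nearest to *Defb4* were *Klk12* (r = 0.89, rho = 0.91) and *Klk13* (r = 0.89, rho = 0.94), both kallikrein proteases. *Slpil3* ran nearest to *Slpil2* (r = 0.91, rho = 0.85), *Wfdc2* to *Cd276* (r = 0.90, rho = 0.88), *Lcn2* to *Sirpa* (r = 0.87, rho = 0.77), *Pglyrp1* to *Sfi1* (r = 0.85, rho = 0.65), and *Defb1* to *Cstb*, a cystatin (r = 0.83, rho = 0.79). Without the 2 rats farthest from the median, r was 0.82, 0.85, 0.91, 0.84, 0.73, 0.58 and 0.81 in the same order. These are the highest of many values from the same libraries and carry no test.

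The genes did not deviate as one group. Among the 7, the highest r between a pair was 0.59, for *Lcn2* and *Wfdc2* (rho = 0.58), and the lowest was -0.56, for *Lcn2* and *Slpi* (rho = -0.46). *Defb4* and *Defb1* gave -0.07 (rho = -0.07).

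Other antimicrobial genes moved in both directions. Of 25 such genes, 21 were listed and 17 tested, of which 4 were higher and 2 lower after UVB in WT and 7 higher and 1 lower in P1.hMR rats. Among these, *Reg3g*, reached 1 TPM only in UVB rats. The medians of the 17 were 0.19 (WT) and 0.37 (P1.hMR) on the log2 scale. Over all genes, 3.92% were called higher and 3.98% lower in WT, and 5.05% and 5.71% in P1.hMR rats. *Defb14*, another beta-defensin, rose in WT rats, from a mean of 11.9 ± 2.96 TPM (SD, n = 4) up to 36.7 ± 13.5 TPM (SD, n = 3). Its log2 fold changes were 1.51 (SE 0.34, limma adjusted p = 0.00587) with WT rats and 2.39 (SE 0.28, limma adjusted p = 1.26e-05) with P1.hMR rats.

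*Defb3* was not called in WT rats (log2 fold change 1.63, 95% interval -0.36 to 3.62) and was called higher in P1.hMR rats (3.28, 1.63 to 4.93). Its interaction of 1.65 was not called (95% interval -0.94 to 4.23), so a difference between the genotypes was not shown. *S100a7a*, of the S100 family of epidermal alarmins, rose by 1.03 and 1.72. *Nos2*, the inducible nitric oxide synthase, fell by 1.26 and 1.54 on the log2 scale and was called lower in both genotypes.

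Of 18 other protease inhibitor genes, 17 were listed and 13 tested, of which 2 were higher and 4 lower in WT and 2 higher and 3 lower in P1.hMR rats after UVB. The medians were -0.27 and -0.21. Shares over all genes were 3.92% higher and 3.98% lower in WT and 5.05% and 5.71% in P1.hMR rats. *Timp1*, an inhibitor of matrix metalloproteinases, rose in both genotypes, with log2 fold changes of 2.95 (WT) and 3.02 (P1.hMR). Its WT means were 11.6 ± 1.15 TPM (SD, n = 4) without and 106.6 ± 59.8 TPM (SD, n = 3) with UVB. *Wfdc21*, a further WAP-domain gene and more abundant than any of the 10 genes in control rats, fell from 220.1 ± 46.8 TPM to 91.4 ± 15.9 TPM in WT rats and from 262.7 ± 61.3 TPM to 51.2 ± 17.2 TPM in P1.hMR rats. Its log2 fold changes were -1.25 and -2.40 (both called), and the interaction was not called (-1.15, 95% interval -1.94 to -0.35, limma adjusted p = 0.704).

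*Serpina1*, the alpha-1 antitrypsin that inhibits neutrophil elastase, was called lower in both genotypes, at -1.54 (WT) and -1.84 (P1.hMR). *Wfdc18* was called higher at 1.71 and 1.43, with UVB and control rats overlapping in both genotypes, and both calls were lost with a pseudocount of 0.1. The WT call was also lost without Control WT rat 1, 2 or 3 or UVB WT rat 1 or 3 (1.17 to 1.75), and the P1.hMR call without Control P1.hMR rat 3 (1.10) or UVB P1.hMR rat 5 (1.23). Of the other WAP-domain genes, *Slpi* was called higher and *Slpil3* and *Wfdc21* lower in both genotypes. *Wfdc1*, *Wfdc2*, *Wfdc3*, *Wfdc5* and *Wfdc12* were tested and called in neither. *Slpil2*, called lower in both, is left out here because it entered the test through control rats.

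Of 11 proteases that such inhibitors are known to block or that act beside them, 10 were listed and 7 tested. Of these, 4 were higher and 1 lower in each genotype, with a median of 0.63 in both. Here too the shares over all genes were 3.92% higher and 3.98% lower in WT and 5.05% and 5.71% in P1.hMR rats. The kallikreins *Klk6* and *Klk13*, serine proteases of stratified epithelia, rose in both genotypes, *Klk6* by 1.89 (WT) and 1.75 (P1.hMR) and *Klk13* by 1.18 and 1.74. *Klk5*, a kallikrein of epidermal shedding, had log2 fold changes of -1.30 and -1.17, both called lower. *Mmp9*, a gelatinase, stayed under 2 TPM in every rat and was called higher at 0.85 and 0.63. It reached 1 TPM in only 3 rats, all of them UVB rats, so it entered the test only through the groups where it was high, and it was not tested when any of these 3 was left out.

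Of 28 cytokine, receptor and transcription factor genes known to act upstream of these defence genes, 26 were listed and 21 tested, of which 5 were higher and 0 lower in WT and 6 higher and 2 lower in P1.hMR rats by limma, with medians of 0.13 and 0.06. Of all genes, 3.92% were called higher and 3.98% lower in WT, and 5.05% and 5.71% in P1.hMR rats. At an unadjusted p under 0.05 there were 11 and 14 of the 21, where 4622 and 6244 of all 13105 genes were. The epithelial cytokines *Il36a* and *Il36g* rose by 1.53 and 1.33 in WT and by 2.08 and 1.49 in P1.hMR rats. *Il36a* reached 1 TPM only in UVB rats, 7 of them, and so entered the test through them. *Bcl3*, an NF-kappaB partner, rose by 1.11 and 0.78. *Il1b* passed the thresholds with P1.hMR rats (1.35) but not with WT rats (0.53, 95% interval -0.10 to 1.15), and its interaction was not called (0.83, 95% interval 0.01 to 1.64, limma adjusted p = 0.711). The 2 genes called lower in P1.hMR rats were *Nfkbiz*, with means of 10.9 TPM without and 6.96 TPM with UVB, and *Tlr2*, with 4.69 and 2.62 TPM.

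Of 8 receptor genes for these products, all were listed, 4 were tested and 0 were called by limma in either UVB comparison, with an unadjusted p under 0.05 for 2 in each, beside the 4622 and 6244 of all 13105 genes given above. Of all genes, 7.91% were called after UVB in WT and 10.8% in P1.hMR rats. No gene of the 5 lists was called between genotypes.

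**Figure D5:**
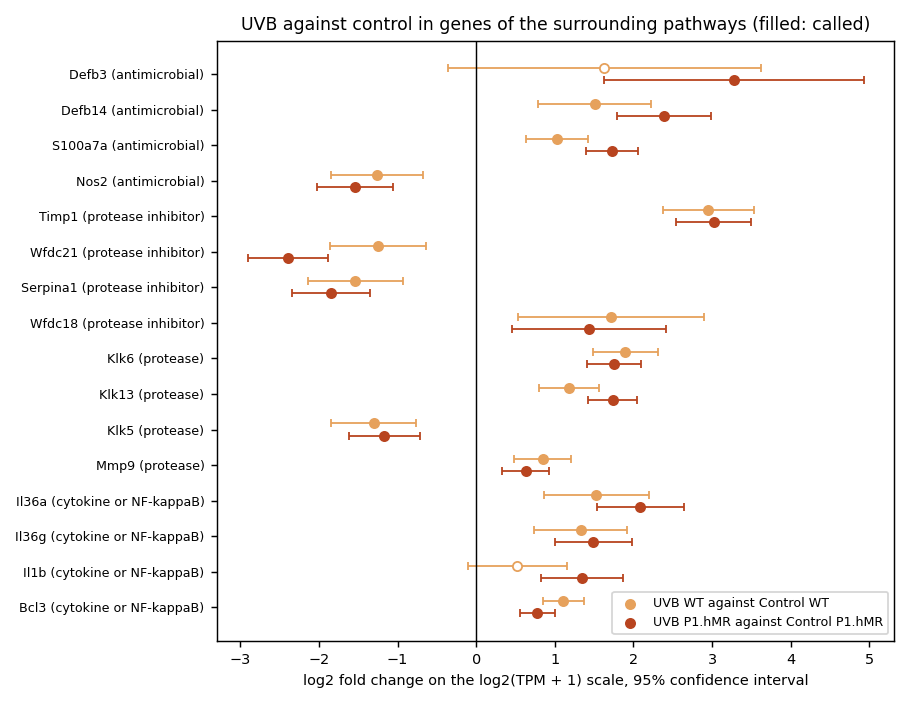
The horizontal axis is the log2 fold change of UVB against control on the log2(TPM + 1) scale with 95% confidence intervals of limma for the 4 genes named from each of 4 lists, in WT (light) and P1.hMR (dark) rats. Filled points were called. *Timp1* has the highest value in WT rats at 2.95, *Wfdc21* the lowest in P1.hMR rats at -2.40, and *Defb3* and *Il1b* are open in WT rats.

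Some markers of other cells were higher after UVB beside these genes. Of 11 neutrophil markers, 8 were listed, and their sum ran from 0.47 to 1.01 TPM in Control WT, 0.35 to 3.13 in Control P1.hMR, 1.04 to 2.34 in UVB WT and 2.31 to 4.23 TPM in UVB P1.hMR rats. *Csf3r* was the only 1 of them tested and was called higher in WT (0.88) and P1.hMR rats (1.22), but all 7 rats in which it reached 1 TPM were UVB rats, so it entered the test only through them. Of the granule genes, *Elane* was at 0 in 16 of 17 rats and *Mpo* was at most at 0.66 TPM. *Ngp* was at 2.5 TPM in Control P1.hMR rat 2 and at most at 0.4 TPM in the others. *Lcn2* was at 2.8 TPM in that rat and at 2.7 TPM in Control P1.hMR rat 4, where *Ngp* was at 0.14 TPM. Of 7 macrophage markers, 6 were listed and tested. *Cd163* and *Mrc1* were called higher in both genotypes, and the other 4 were not called. The shares called over all genes were 7.91% in WT and 10.8% in P1.hMR rats. Mean *Cd68* was lower with UVB, at 30.1 against 39.8 TPM in WT and 30.7 against 37.9 TPM in P1.hMR rats. Mean *Aif1* was higher, at 10.4 against 6.62 TPM and 11.8 against 7.86 TPM. *Csf1r* and *Adgre1* means were slightly higher in WT and lower in P1.hMR rats. The sum of the 6 ran from 44.15 to 84.06 TPM in control rats and from 49.41 to 100.7 TPM in UVB rats of both genotypes. The part of these cells in the changes of *Lcn2*, *Slpi* and *Defb4* was not tested.

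Of 8 keratinocyte markers, 6 were listed and tested, with 0 called higher and 1 lower after UVB in each genotype. Their sums lay between 10200 and 12790 TPM in control and between 11280 and 15560 TPM in UVB rats. *Krt14* averaged 5279 TPM without and 7338 TPM with UVB in WT rats, and 5297 and 7589 TPM in P1.hMR rats. *Ivl* averaged 14.05 and 5.69 TPM in WT and 13.5 and 5.1 TPM in P1.hMR rats. Of 8 goblet cell and conjunctiva markers, 6 were listed and 4 tested, with 0 called in WT and 1, lower, in P1.hMR rats. The sums of the 6, carried by *Krt4* and *Krt13*, ran from 3942 to 5347 TPM in control and from 4858 to 6898 TPM in UVB rats. Of 8 lacrimal gland markers, 4 were listed, with sums between 3.15 and 8.59 TPM. The part of these tissues in the changes was not tested either.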

How the data were processed

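RNA of the MG of 17 rats was sequenced. The authors deposited TPM for 17251 genes with decimal commas and 2 decimals, read here as decimal points. The study's methods name FastQC, STAR and RSEM on rn7, while the submitters' processing notes list FastQC, Trimmomatic, DRAGEN and Picard, so which tools made the table is not certain. The sums of the listed values, between 804378 and 840817 TPM per rat, show that genes were left out after TPM was computed. The depth of each sample cannot be recovered from TPM, so no counting error is given, and the DESeq2 test of the study, which takes counts, could not be run. Between 12372 and 12737 genes per rat reached 1 TPM, and 12 genes were at 0 in every rat.

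Values were analysed as log2(TPM + 1) in R 4.3.3 with limma 3.58.1 (4 group means, variance trend), for the 13105 genes that reached 1 TPM in 3 or more rats. The model was tested on simulated data. Two-sided exact permutation tests, promoter motifs and figures were made with matplotlib 3.10.9, pandas 2.3.3, scipy 1.17.1 and numpy 2.4.6 in Python 3.11.15. The smallest p these exact tests allow is 0.0571 (UVB WT against Control WT), 0.00794 (UVB P1.hMR against Control P1.hMR), 0.0357 (genotypes with UVB) and 0.0159 (genotypes without). Samples were grouped from their deposited labels, and p-values measure the spread between rats. From each list the up to 4 genes with the largest change among those called after UVB were named, and the 2 genes running most alike were computed for each member, of which that for *Slpi* is not reported here. The 10 genes, the lists and the markers were chosen with earlier results of these data known. RefSeq sequences are from GRCr8, not rn7. Alternatives were each rat left out in turn, a pseudocount of 0.1, a filter at a mean of 5 TPM or no filter, median-of-ratios scaling or quantile normalization, separate fits for each pair of groups, limma with no trend, a replicate block, and a fold change threshold of 1 on the log2 scale or none.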

Additional observations from a re-analysis of the deposited data

Results flagged for a closer look

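Within groups of 4 or 5 rats, 5 of 69 groups, over the 7 tested genes and 16 genes of the lists, held a rat whose gap to the nearest other rat exceeded Dixon's 95% critical value, where chance flags about 1 in 20. UVB P1.hMR rat 2 was at 0.35 TPM for *Lcn2*, with the others between 15.05 and 30.39 TPM. UVB P1.hMR rat 5 was at 22.41 TPM for *Wfdc21*, with the others between 52.66 and 67.56 TPM. Control WT rat 1 was at 38.38 TPM for *Serpina1*, with the others between 88.65 and 95.03 TPM. Control P1.hMR rat 3 was listed at 0 TPM for *Wfdc18*, with the others between 1.65 and 2.67 TPM. Control P1.hMR rat 4 was at 82.71 TPM for *Klk6*, with the others between 51.96 and 58.14 TPM. The 5 values came from 5 rats of 3 groups.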

How the results depend on the processing

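The number of the 7 genes called in each of the 5 comparisons stayed within 1.5 times the reported number under all 49 values from the other settings and all 85 from leaving out a rat. No called value of *Defb4*, *Lcn2*, *Slpi* or *Slpil3* lost its call or its direction, while the *Pglyrp1* call in P1.hMR rats was lost with a fold change threshold of 1 on the log2 scale and without UVB P1.hMR rat 2. With a pseudocount of 0.1, the log2 fold change was 5.96 for *Lcn2* in WT (3.54 reported) and -1.45 for *Pglyrp1* in P1.hMR rats (-0.63 reported), and the values in WT and P1.hMR rats were -2.85 and -2.80 for *Slpil2*, 2.84 and 2.25 for *Wfdc18*, 2.13 and 1.74 for *Mmp9* and 3.59 and 4.12 for *Il36a*. With no fold change threshold, *Defb1* was called lower in both genotypes. Replicate numbers did not pair the rats: same-numbered rats of different groups correlated between -0.187 and 0.235 and different-numbered rats between -0.264 and 0.181. The replicate block changed no call, and turned values near 0 for *Lcn2* between genotypes with UVB (-0.16, 0.08 reported), *Wfdc2* after UVB in WT (0.13, -0.03 reported) and the *Wfdc2* interaction (-0.040, 0.12 reported). A pseudocount of 0.1 with no block turned the same *Lcn2* value to -0.15.

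Leaving out each rat in turn also changed the sign only of uncalled values. Between genotypes with UVB these ran from -0.039 to 0.075 for *Defb1*, -0.12 to 0.18 for *Defb4*, -0.55 to 0.91 for *Lcn2*, -0.14 to 0.43 for *Slpi* and -0.31 to 0.050 for *Pglyrp1*, and without UVB from -0.10 to 0.36 for *Slpil3*. *Wfdc2* ran from -0.31 to 0.15 after UVB in WT and from -0.050 to 0.25 in P1.hMR rats. The interactions ran from -0.36 to 0.20 for *Slpi* and from -0.062 to 0.40 for *Wfdc2*. The causes were not tested. With depth unknown, values near 0 TPM carry no counting error.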

Other observations

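*S100a8* and *S100a9*, the calprotectin subunits, belonged to the list of other antimicrobial genes and were looked at after their values were seen, for their level. *S100a8* lay between 1210.39 and 1498.82 TPM in control rats and between 1440.92 and 2029.96 TPM in UVB rats, above *Defb1* and *Defb4* in every rat. *S100a9* lay between 307.48 and 417.33 TPM in control rats and between 397.92 and 788.16 TPM in UVB rats. The log2 fold changes of *S100a8* were 0.14 in WT and 0.37 in P1.hMR rats, neither called. Those of *S100a9* were 0.45 in WT (limma adjusted p = 0.0636, not called) and 0.59 in P1.hMR rats (limma adjusted p = 0.00282, called), and its interaction was 0.15 (95% interval -0.31 to 0.60, limma adjusted p = 0.925).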
